A study of Mus musculus with 9 samples.

Results

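The enzymes and regulators that build long-chain fatty acids from acetyl-CoA were described across 9 mouse RNA libraries as 10 named genes, out of 22173 gene symbols in the table. They are Srebf1, Mlxipl, Thrsp, Acly, Acaca, Fasn, Elovl6, Scd1, Me1 and Gpam, chosen by name as core lipogenic genes. All 10 had a mean of at least 1 FPKM and entered the tests. The libraries came from mice given bile duct ligation (BDL) plus senkyunolide A, mice given BDL, and sham-operated mice, with 3 libraries in each group. BDL is the surgical closure of the bile duct, which holds bile back in the liver, and senkyunolide A is a phthalide known from Ligusticum and Angelica plants. Every library is polyA RNA labelled cholangiocyte, the epithelial cell of the bile ducts. The labels give no strain, age, sex, dose, duration or isolation method. They also do not say that each library is a separate animal, so the tests measure library-to-library spread, which may be technical.

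De novo lipogenesis starts with citrate, which Acly cleaves to acetyl-CoA in the cytosol. Acaca carboxylates acetyl-CoA to malonyl-CoA, Fasn joins these units into palmitate with NADPH that Me1 helps to supply, Elovl6 lengthens palmitate, Scd1 inserts a double bond, and Gpam attaches the product to glycerol phosphate. In liver the programme is known as a hepatocyte function that insulin drives through SREBP-1c, made from Srebf1, and that sugars drive through ChREBP, encoded by Mlxipl. Thrsp encodes the thyroid hormone responsive protein Spot 14, a lipogenic nuclear protein induced by carbohydrate feeding.

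The estimated depth was 27.3 to 33.8 M fragments per library, and the estimate behind a single member value ran from 1054 fragments for Elovl6 to 502689 for Scd1. Against their label, the libraries carried far more hepatocyte than biliary transcripts: the summed level of 15 hepatocyte markers took 11.7 to 13.7% of all FPKM with BDL plus senkyunolide A, 10.4 to 14.6% in BDL and 11.7 to 14.9% in sham. The 16 biliary markers, among them Krt19 and Epcam, took 0.0249 to 0.0925% with BDL plus senkyunolide A, 0.0301 to 0.143% in BDL and 0.0141 to 0.0213% in sham, and none was at 0 in every library. A large part of the highest biliary sums was Spp1. In BDL library 3 it had 551 of the 694 FPKM, while Krt19 and Epcam had 6.70 and 4.59 FPKM. The hepatocyte share thus overlapped between all 3 groups, though single markers moved in both directions. By the limma test described below, 1 of the 15 was called higher and 3 lower in BDL than in sham, beside 8.12% and 2.84% of all genes. G6pc had 14.7, 11.8 and 47.6 FPKM in BDL libraries and 277.9, 214.7 and 296.7 FPKM in sham libraries. Hp had 7752, 6333 and 4334 FPKM in BDL libraries and 1338, 1495 and 1671 FPKM in sham libraries. The 7 neutrophil markers took 0.00331 to 0.0197% with BDL plus senkyunolide A, 0.0075 to 0.0135% in BDL and 0.00063 to 0.00124% in sham. The 12 macrophage markers took 0.114 to 0.463% with BDL plus senkyunolide A, 0.189 to 0.289% in BDL and 0.0647 to 0.0861% in sham, so both ligated groups lay above sham for both lists. The 10 stellate and fibroblast markers took 0.0205 to 0.0491% with BDL plus senkyunolide A, 0.00515 to 0.0259% in BDL and 0.0170 to 0.0223% in sham. In the same order the 8 endothelium markers took 0.0202 to 0.0328%, 0.00945 to 0.0269% and 0.0186 to 0.0228%. The 9 lymphocyte markers took 0.000744 to 0.00209%, 0.00239 to 0.00386% and 0.000499 to 0.00205%. All 10 stellate and 8 endothelium differences of BDL plus senkyunolide A from BDL were above 0, while 61.9% of all genes were below it. Of these, 0 were called, beside 0.0101% of all genes. Stellate markers took 0.00515, 0.0068 and 0.0259% in BDL libraries 1, 2 and 3, and endothelium markers 0.00945, 0.0106 and 0.0269%, so library 3 was not low. The part of these shifts in the results below was not tested. The 10 adipocyte markers summed to 22.2 to 32.7 FPKM with BDL plus senkyunolide A, 18.8 to 29.2 FPKM in BDL and 21.1 to 25.3 FPKM in sham, and 4 of them averaged at least 1 FPKM over the libraries. Among these Fabp4, which other cells also express, reached 24.4 FPKM, while Plin1, Lep and Retn were at 0 in every library and Adipoq was above 0 in sham library 2 alone, at 0.0284 FPKM. In such mixed RNA, fewer cells of a type and less RNA per cell cannot be told apart. Within its group, BDL plus senkyunolide A library 1 had the highest value for 9 of the 10 genes (all but Elovl6), and sham library 1 for 8 of the 10.

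None of the 10 genes passed the test in any of the 3 comparisons, although the levels moved over wide ranges. A gene passed at an adjusted p under 0.05 in limma, a linear model of log2(FPKM + 1) over all 9 libraries with Benjamini-Hochberg adjustment over 9884 genes. Against sham, BDL libraries had 0 of 10 genes called, beside 11% of all genes. With BDL plus senkyunolide A, 0 of 10 were called against BDL, where 1 gene of the 9884 was called, or 0.0101%. The same libraries had 0 of 10 called against sham, beside 2.17% of all genes. The values below therefore describe levels and their spread, and a p that misses the threshold does not show that the groups were alike.

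**Figure D1:**
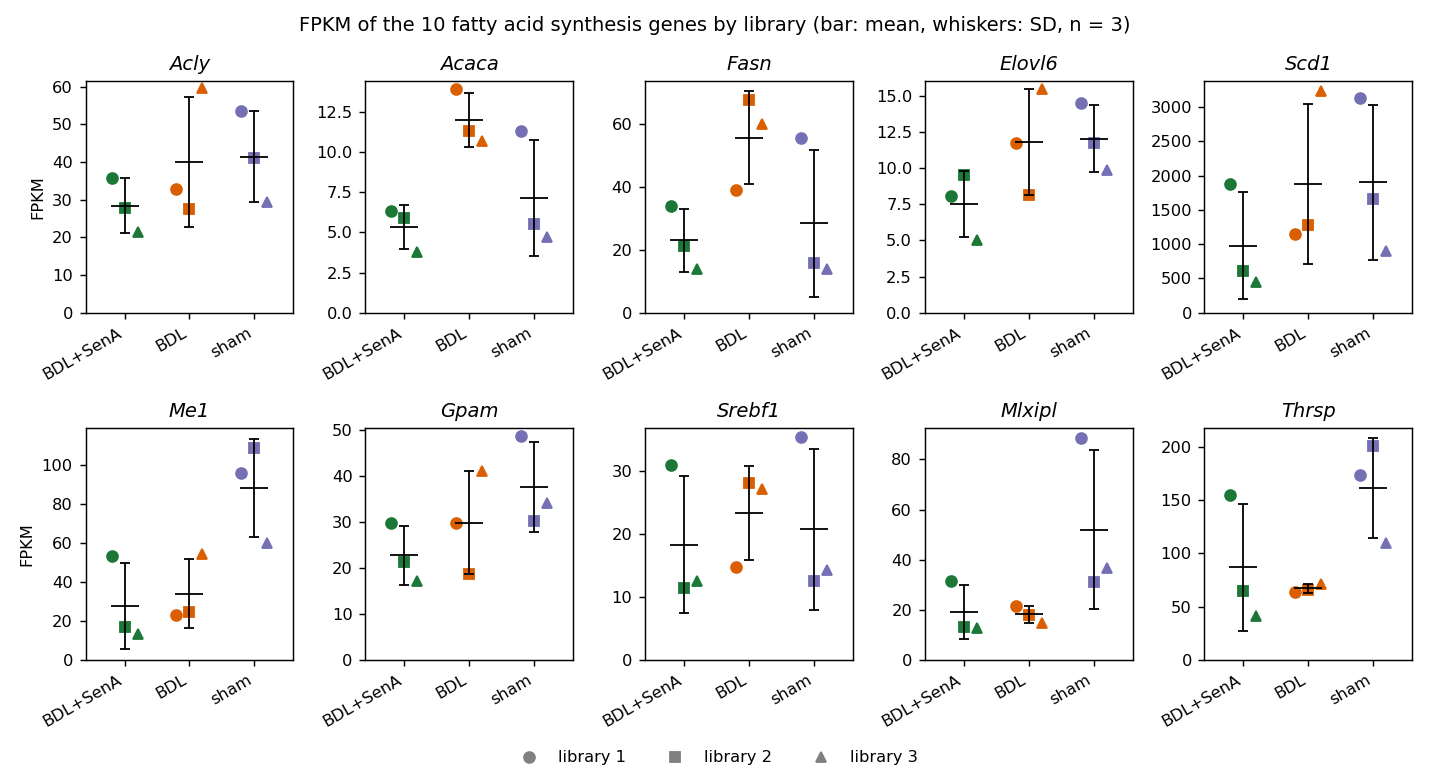
FPKM of each gene in each library on linear axes that start at 0, 1 panel per gene, with groups from left to right BDL plus senkyunolide A, BDL and sham. Points are libraries, long bars are group means and whiskers are the SD (n = 3). Scd1 runs from 453 to 3228 FPKM while Acaca stays between 3.80 and 13.9 FPKM.

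Scd1 dominated the set. It had 1880, 607 and 453 FPKM in BDL plus senkyunolide A libraries 1, 2 and 3, 1145, 1272 and 3228 FPKM in BDL libraries and 3136, 1666 and 900.2 FPKM in sham libraries. It supplied 74.3 to 90.1% of the summed FPKM of the 10 genes and ranked between 17 and 161 among all genes of a library. FPKM divides by gene length, so the genes can be ordered: Scd1 came first and Thrsp second in all 3 groups. Below them most neighbours overlapped. With BDL plus senkyunolide A, Acly, Me1, Fasn, Gpam, Mlxipl and Srebf1 each overlapped the next, from a mean of 28.4 down to 18.3 FPKM, and Elovl6 and Acaca lay below them at 7.54 and 5.35 FPKM. In BDL, Fasn came next after Thrsp at a mean of 55.7 FPKM and overlapped it. In sham, Me1 and Mlxipl came next after Thrsp at 88.4 and 52.0 FPKM, overlapping each other, and Fasn lay below Acly and Gpam at 28.5 FPKM. Together the 10 genes took 0.422, 0.151 and 0.109% of all FPKM in BDL plus senkyunolide A libraries, 0.301, 0.306 and 0.736% in BDL libraries, and 0.796, 0.410 and 0.242% in sham libraries. The groups overlap in this share.

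Of the regulators, Mlxipl and Thrsp averaged highest in sham and Srebf1 did not. Mlxipl (GRCm38 chromosome 5, 135089890 to 135138382, plus strand) encodes ChREBP, which binds DNA at carbohydrate response elements. It had 31.6, 13.0 and 12.5 FPKM in BDL plus senkyunolide A libraries 1, 2 and 3, 21.6, 17.8 and 14.9 FPKM in BDL libraries and 88.5, 31.0 and 36.5 FPKM in sham libraries. All BDL libraries were below all sham libraries, and library 1 of the senkyunolide A group just overlapped the lowest sham library. The limma difference was -1.33 ± 0.42 (log2, SE) for BDL against sham with adjusted p = 0.0641, and -1.37 ± 0.42 for BDL plus senkyunolide A against sham with adjusted p = 0.0857. The BDL plus senkyunolide A and BDL groups overlapped throughout, at -0.04 ± 0.42 with an interval of -0.96 to 0.88 (95%).

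Thrsp (chromosome 7, 97412938 to 97417730, minus strand) had 154.6, 64.1 and 41.3 FPKM with BDL plus senkyunolide A, 63.9, 65.6 and 71.3 FPKM in BDL and 173.7, 200.9 and 109.5 FPKM in sham. The BDL libraries were tight, with an SD of 3.88 around 66.9 FPKM, and lay below every sham library. The difference was -1.21 ± 0.41 for BDL against sham (limma, adjusted p = 0.0807). With BDL plus senkyunolide A, libraries 2 and 3 lay below the sham range and library 1 lay inside it, at -1.06 ± 0.41 with adjusted p = 0.152.

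Srebf1 (chromosome 11, 60199089 to 60222581, minus strand), whose product activates most enzymes of the pathway, showed no such order. It had 30.9, 11.4 and 12.6 FPKM with BDL plus senkyunolide A, 14.7, 28.1 and 27.2 FPKM in BDL and 35.4, 12.5 and 14.2 FPKM in sham. The groups overlapped in all comparisons, and the BDL against sham difference was 0.26 ± 0.45 (interval -0.72 to 1.24). Gene-level FPKM does not separate SREBP-1a from SREBP-1c, and exons of Srebf1 overlap Rai1 on the other strand. Strand use in counting is not given, so reads from such overlaps cannot be assigned. The same holds for antisense genes annotated over exons of Mlxipl, Me1 and Elovl6.

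The pair of regulators can also be set against each other inside each library, a ratio that scaling of a library leaves as it is. Mlxipl divided by Srebf1 was 1.02, 1.14 and 0.997 in BDL plus senkyunolide A libraries, 1.47, 0.633 and 0.548 in BDL libraries and 2.50, 2.48 and 2.56 in sham libraries. The 3 sham ratios were close together and above those of every ligated library, although sham library 1 had by far the highest FPKM of the group for both genes. This ratio was picked after the values were seen. It is 1 of 45 ratios possible among the 10 genes, of which 22 did not overlap between BDL and sham, 10 between BDL plus senkyunolide A and BDL, and 11 between BDL plus senkyunolide A and sham. Single genes did not overlap in 30.5, 17.6 and 29.6% of all tested genes in the same order. The share for ratios of other genes was not computed and the 45 ratios share genes, so whether these counts are unusual was not tested.

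**Figure D2:**
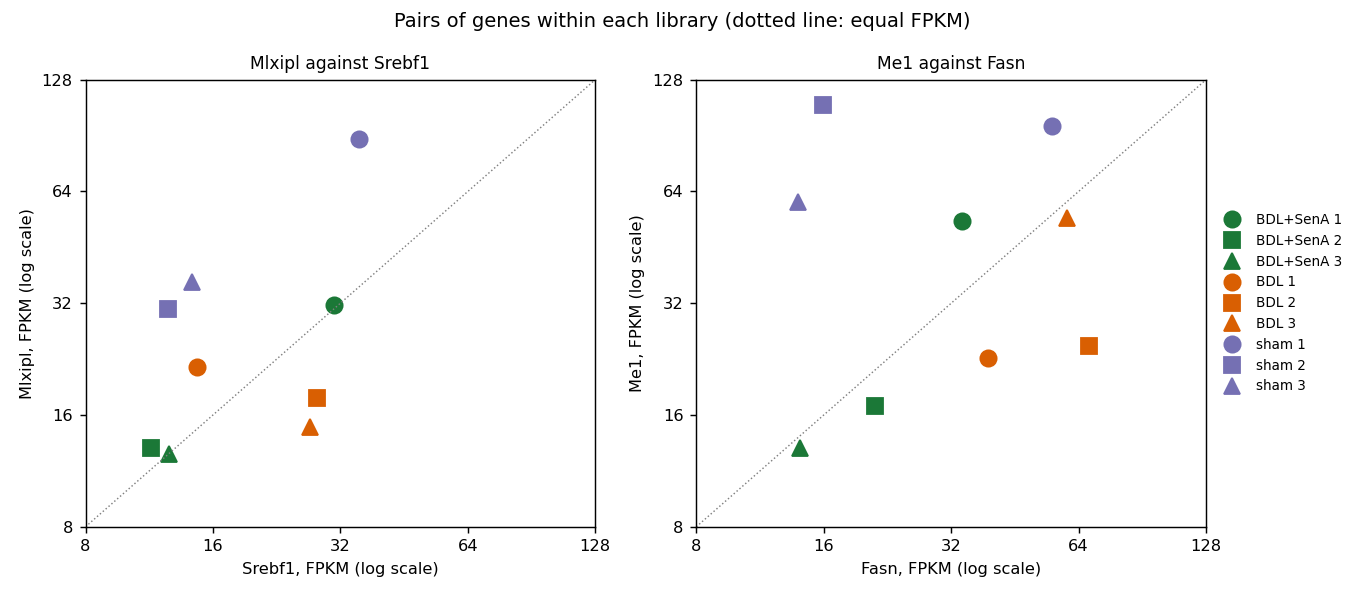
Mlxipl against Srebf1 and Me1 against Fasn, in FPKM on log axes, with 1 point per library coloured by group and a dotted line where both genes are equal. Sham libraries lie near a Mlxipl to Srebf1 ratio of 2.5, and the 6 ligated libraries lie at 1.47 or lower.

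Fasn and Acaca, which make palmitate, averaged highest in BDL. Fasn (chromosome 11, 120805846 to 120824547, minus strand) had 33.9, 21.2 and 14.0 FPKM in BDL plus senkyunolide A libraries 1, 2 and 3, 39.1, 67.7 and 60.2 FPKM in BDL libraries and 55.5, 15.9 and 13.9 FPKM in sham libraries. Every BDL library was above every BDL plus senkyunolide A library, and sham library 1 lay within the BDL range while the other sham libraries lay far below it. BDL plus senkyunolide A differed from BDL by -1.29 ± 0.48 (interval -2.33 to -0.24, limma adjusted p = 0.407). BDL differed from sham by 1.19 ± 0.48 (adjusted p = 0.130). Without sham library 1, the BDL against sham difference was 1.80 with adjusted p = 0.0212, so that call turns on 1 library.

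Acaca (chromosome 11, 84129672 to 84401651, plus strand), which makes the malonyl-CoA that Fasn uses, followed the same order. It had 6.34, 5.91 and 3.80 FPKM with BDL plus senkyunolide A, 13.9, 11.3 and 10.7 FPKM in BDL and 11.3, 5.50 and 4.70 FPKM in sham. The BDL libraries again lay above all BDL plus senkyunolide A libraries, and only sham library 1 reached the BDL range. The difference was -1.05 ± 0.29 for BDL plus senkyunolide A against BDL (limma, adjusted p = 0.407) and 0.75 ± 0.29 for BDL against sham (adjusted p = 0.124). Without sham library 1 the BDL against sham difference was 1.09 with adjusted p = 0.0231.

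Acly (chromosome 11, 100476353 to 100528000, minus strand), the step before both, did not share this order. It had 35.9, 27.9 and 21.4 FPKM with BDL plus senkyunolide A, 32.7, 27.5 and 59.5 FPKM in BDL and 53.6, 41.1 and 29.4 FPKM in sham. All groups overlapped. The BDL against sham difference was -0.09 ± 0.33 (interval -0.80 to 0.63), and that of BDL plus senkyunolide A against BDL was -0.43 ± 0.33 (interval -1.15 to 0.29).

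The start-site sequences of Fasn and Mlxipl are shown because these genes lead the contrasting orders, Fasn with its highest mean in BDL and Mlxipl with its highest in sham. RefSeq windows of GRCm38.p6, from 250 bases before to 50 bases after an annotated start, matched 9 of the 10 genes with 14 windows. Both are printed 5′ to 3′ on the gene's own strand, Fasn at chr11:120824498-120824797 (minus) and the upstream start of Mlxipl at chr5:135089640-135089939 (plus). Capitals mark matches to CCAAT (the NF-Y box), GGGCGG (the GC box) and CACGTG (an E-box) on either strand.
Fasn: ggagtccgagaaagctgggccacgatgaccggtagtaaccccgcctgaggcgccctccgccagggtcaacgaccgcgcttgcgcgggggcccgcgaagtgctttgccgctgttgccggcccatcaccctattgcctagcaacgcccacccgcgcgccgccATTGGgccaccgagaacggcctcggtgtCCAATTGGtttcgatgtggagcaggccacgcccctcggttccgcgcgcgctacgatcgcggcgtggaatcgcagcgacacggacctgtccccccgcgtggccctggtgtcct
Mlxipl: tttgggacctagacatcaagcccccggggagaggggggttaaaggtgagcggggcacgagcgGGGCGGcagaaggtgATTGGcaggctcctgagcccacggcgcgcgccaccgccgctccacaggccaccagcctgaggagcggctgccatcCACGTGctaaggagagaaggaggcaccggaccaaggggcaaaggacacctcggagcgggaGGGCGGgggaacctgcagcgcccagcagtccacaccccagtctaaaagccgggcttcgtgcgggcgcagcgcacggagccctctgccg
The Fasn window holds CCAAT matches that begin 90, 62 and 59 bases before the start, the last pair sharing letters on opposite strands. The Mlxipl window holds 1 CCAAT, 1 CACGTG and 2 GGGCGG matches. CCAAT was found in 8 of the 14 windows and in 37.4% of 32851 promoters of this length. GGGCGG was found in 6 of the 14 and in 35.7%. CACGTG was found in 1 of the 14, that of Mlxipl printed here, and in 7.15% of promoters, and the sterol regulatory element TCACNCCAC in 1 of the 14, at the downstream Mlxipl start, and in 1.24%. A match describes letters only and is no evidence of binding.

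Elovl6, Scd1 and Gpam, which lengthen, desaturate and esterify the product, averaged lowest with BDL plus senkyunolide A, as did Acly, Acaca, Fasn, Srebf1 and Me1. Elovl6 (chromosome 3, 129532355 to 129638495, plus strand) had 8.06, 9.52 and 5.04 FPKM with BDL plus senkyunolide A, 11.7, 8.16 and 15.5 FPKM in BDL and 14.5, 11.8 and 9.88 FPKM in sham. The senkyunolide A libraries lay below every sham library but overlapped BDL. The difference was -0.63 ± 0.28 for BDL plus senkyunolide A against sham (limma, adjusted p = 0.203) and -0.58 ± 0.28 for BDL plus senkyunolide A against BDL (adjusted p = 0.414).

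Gpam (chromosome 19, 55067268 to 55127238, minus strand), the mitochondrial acyltransferase that opens glycerolipid synthesis, had 29.7, 21.4 and 17.2 FPKM with BDL plus senkyunolide A, 29.7, 18.8 and 41.2 FPKM in BDL and 48.8, 30.1 and 34.0 FPKM in sham. The senkyunolide A libraries again lay below all sham libraries, the closest pair at 29.7 and 30.1 FPKM. The difference from sham was -0.71 ± 0.31 with adjusted p = 0.204 (limma). For Scd1 (chromosome 19, 44394455 to 44407879, minus strand), the values given above overlapped in every comparison. The difference was -1.06 ± 0.60 for BDL plus senkyunolide A against BDL, with a wide interval of -2.38 to 0.26, and -0.00 ± 0.60 for BDL against sham. The similar genes Scd2, Scd3 and Scd4 beside it can share reads with it.

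Me1 (chromosome 9, 86581371 to 86695953, minus strand) is the cytosolic malic enzyme, which turns malate to pyruvate and yields NADPH. It had 53.2, 16.9 and 13.1 FPKM in BDL plus senkyunolide A libraries 1, 2 and 3, 22.8, 24.5 and 54.3 FPKM in BDL libraries and 96.0, 109.1 and 60.1 FPKM in sham libraries. All 6 ligated libraries lay below all sham libraries. Against sham the difference was -1.86 ± 0.49 for BDL plus senkyunolide A (limma, adjusted p = 0.0607) and -1.43 ± 0.49 for BDL (adjusted p = 0.0834). Divided by Fasn in the same library, Me1 was 1.57, 0.797 and 0.930 with BDL plus senkyunolide A, 0.583, 0.362 and 0.903 in BDL and 1.73, 6.86 and 4.32 in sham, again without overlap between ligated and sham libraries.

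Counted over the set, BDL libraries lay below sham without overlap for 3 of 10 genes (Mlxipl, Thrsp and Me1), beside 8.96% of all genes, and above it for 0 of 10, beside 21.5% (30.5% of all genes in either direction). The median difference was -0.07 for the 10 genes and 0.15 for all tested genes. BDL plus senkyunolide A lay below BDL without overlap for 2 of 10 (Acaca and Fasn), beside 14.3% of all genes, and above it for 0 of 10, beside 3.25% (17.6% in either direction). Of the 10 differences, 9 were below 0, beside 61.9% of all genes (8 under median-ratio or quantile scaling, where Mlxipl was above it). The median of the 10 was -0.43, against -0.12 for all genes. BDL plus senkyunolide A lay below sham without overlap for 3 of 10 (Me1, Elovl6 and Gpam), beside 12.1%, and above it for 0 of 10, beside 17.5% (29.6% in either direction). All 10 differences from sham were below 0, beside 46.4% of all genes, with a median of -0.67 against 0.04 for all genes. Of 19 alternative settings, Fasn and Srebf1 kept this direction in 16 each and Acaca in 18. At an unadjusted p under 0.05, the counts were 5 of 10 for BDL against sham (Acaca and Fasn higher, Mlxipl, Thrsp and Me1 lower), beside 28.6% of all genes, 2 of 10 for BDL plus senkyunolide A against BDL (Acaca and Fasn lower), beside 12.3%, and 5 of 10 for BDL plus senkyunolide A against sham (Me1, Mlxipl, Thrsp, Elovl6 and Gpam lower), beside 23.2%. The 3 comparisons share libraries, so these counts are not independent of each other.

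**Figure D3:**
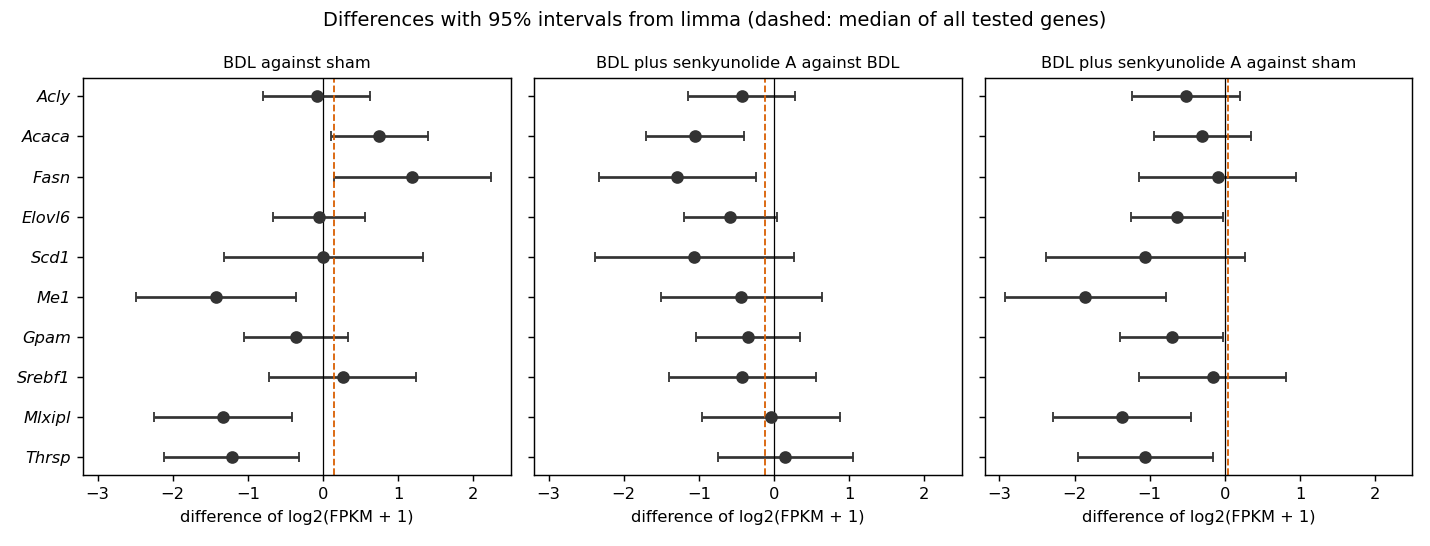
Difference of each gene in log2(FPKM + 1) with its 95% interval from limma, in 3 panels, 1 per comparison. The dashed line is the median of all tested genes. Points left of 0 are lower in the group named first, and no gene passed the adjusted threshold.

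The libraries behind these counts were not even. Library 1 of BDL plus senkyunolide A, high in most of the 10 genes, was the lowest of its group in macrophage markers (0.114% of all FPKM, against 0.393 and 0.463% in libraries 2 and 3). It was also lowest in neutrophil markers (0.00331%, against 0.0197 and 0.0174%) and biliary markers (0.0249%, against 0.0925 and 0.0917%), while its hepatocyte share of 13.5% lay between theirs. BDL library 3, the highest of its group for 6 of the 10 genes, was instead the highest in biliary markers (0.143%, against 0.0368 and 0.0301% in BDL libraries 1 and 2). It was also highest in neutrophil markers (0.0135%, against 0.0075 and 0.00963%), while its macrophage share of 0.243% lay between theirs. Spp1 was 551 of the 694 FPKM of biliary markers in BDL library 3. With BDL plus senkyunolide A it was 42.6 of 134 FPKM in library 1, 365 of 491 in library 2 and 383 of 500 in library 3. The part of these differences in the calls was not tested. With BDL plus senkyunolide A library 1 left out, Mlxipl, Thrsp and Me1 passed as lower in BDL than in sham and Mlxipl, Thrsp, Me1 and Scd1 as lower with BDL plus senkyunolide A than in sham. The BDL and sham values are the same in that fit. The left-out library enters their comparison only through the spread that the 3 groups share and the filter on mean FPKM. Leaving out sham library 1 as well, a choice made after the values were seen, gave 5 of 10 for BDL against sham (Mlxipl, Thrsp and Me1 lower, Acaca and Fasn higher) and 3 of 10 for BDL plus senkyunolide A against sham. No setting gave a call for BDL plus senkyunolide A against BDL, where the lowest adjusted p of any member was 0.0549. Across the 9 libraries, 44 of the 45 pairs of the 10 genes had a correlation above 0 on the log scale, with a median Pearson r of 0.57. About their group means all 45 were above 0, with a median of 0.59. All genes of a library share its depth, scaling and composition, so the correlations are a description. Mlxipl and Srebf1 had r = 0.46 over the 9 libraries and 0.80 about the group means.

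**Figure D4:**
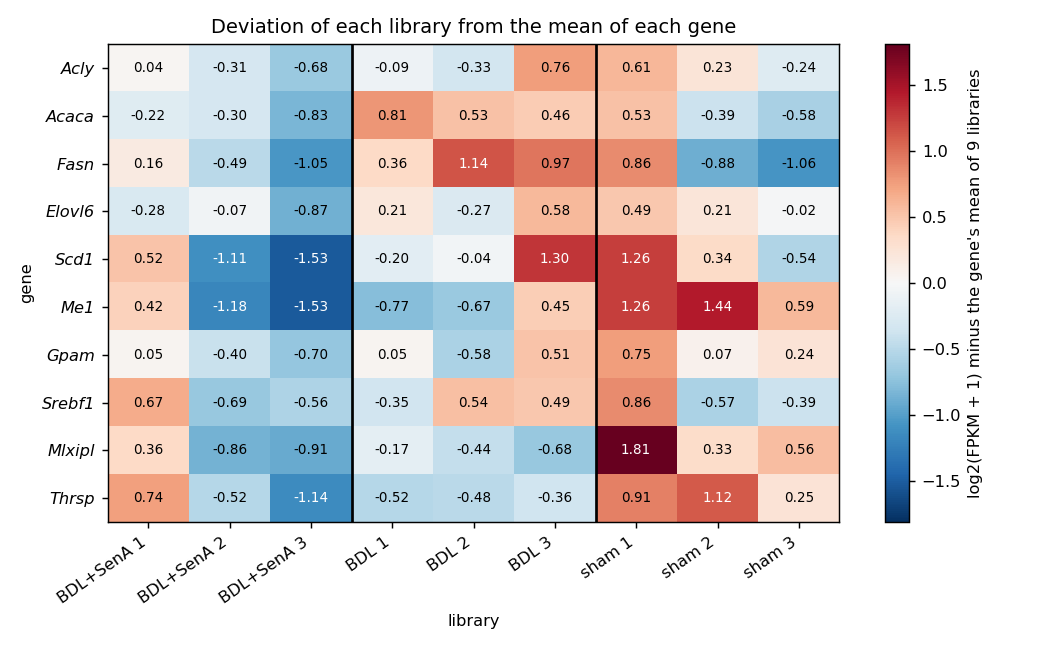
Deviation of each gene from its own mean over the 9 libraries, in log2(FPKM + 1), with genes in rows and libraries in columns grouped as BDL plus senkyunolide A, BDL and sham. Library 3 of the senkyunolide A group is the lowest of the 9 for 8 of the 10 genes.

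The rest of the pathway was read from 10 lists of neighbouring genes. Acetyl-CoA and citrate supply had 0 of 10 higher and 1 of 10 lower in BDL than in sham, beside 8.12% of all genes called higher and 2.84% called lower (803 and 281 genes, or 514 and 502 after median-ratio scaling). The gene that fell was Pdhb, a subunit of pyruvate dehydrogenase, with 45.5 ± 13.0 FPKM in BDL and 82.1 ± 6.52 FPKM in sham (SD, n = 3 each; limma, adjusted p = 0.0375). NADPH supply had 2 of 9 higher and 0 lower. Pgd, of the oxidative pentose phosphate pathway, had 44.1, 53.4 and 69.5 FPKM in BDL libraries, against 22.6, 18.0 and 14.8 FPKM in sham libraries, a difference of 1.54 ± 0.24 with adjusted p = 0.00623. Idh2, the mitochondrial NADP-dependent isocitrate dehydrogenase, rose by 0.96 ± 0.22.

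Among the other elongases and desaturases, 1 of 13 was higher and 2 were lower in BDL than in sham, beside 8.12% and 2.84% of all genes. Elovl3, an elongase of very long chains, had 1.36, 6.31 and 24.8 FPKM in BDL libraries, against 390.1, 406.0 and 527.6 FPKM in sham libraries, a difference of -5.84 ± 1.46 on the log2 scale. In BDL plus senkyunolide A it had 299.5 FPKM in library 1 but 4.22 and 1.01 FPKM in libraries 2 and 3. Elovl2, which lengthens polyunsaturated chains, fell by 1.43 ± 0.36. Scd2, the Scd1 paralog known from brain, rose by 1.41 ± 0.37, to 4.86 ± 0.94 FPKM in BDL against 1.23 ± 0.49 FPKM in sham (SD, n = 3 each), far below the level of Scd1.

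For glycerolipid assembly, 1 of 13 was higher and 0 lower in BDL than in sham, namely Gpat3, the acyltransferase of the endoplasmic reticulum, at 1.37 ± 0.32. Beside this and the lists that follow, 8.12% of all genes were called higher and 2.84% lower. Lipid droplet genes gave 2 of 13 higher and 1 lower. Plin3, a droplet coat protein, had 29.9, 36.2 and 35.9 FPKM in BDL libraries, against 17.0, 11.7 and 12.5 FPKM in sham libraries (1.26 ± 0.20), and Pnpla2, the triglyceride lipase ATGL, rose by 1.74 ± 0.43. Plin2, the main droplet coat of hepatocytes, fell by 1.29 ± 0.36. The list of SREBP processing and lipogenic regulators had 1 of 16 higher, Srebf2 of the cholesterol branch at 1.32 ± 0.33, and 1 lower, Nr0b2 (the bile acid responsive repressor SHP) at -1.34 ± 0.38.

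Acyl-CoA synthetases and fatty acid handling had 2 of 18 higher and 6 lower in BDL than in sham, beside 8.12% and 2.84% of all genes. Lpl, the lipoprotein lipase, had 83.3, 58.5 and 38.7 FPKM in BDL libraries, against 11.1, 11.9 and 13.3 FPKM in sham libraries (2.16 ± 0.40), and the fatty acid carrier Cd36 rose to 48.0 ± 13.4 FPKM in BDL, against 11.2 ± 3.31 FPKM in sham (SD, n = 3 each). Both are also expressed by macrophages, whose markers lay higher in BDL, and the part of that shift was not tested. Acsl1, the main hepatic acyl-CoA synthetase, had 39.1, 36.9 and 35.5 FPKM in BDL libraries, against 242.2, 134.9 and 181.2 FPKM in sham libraries (-2.25 ± 0.52), and Mttp, which loads lipid onto lipoproteins, fell by 0.96 ± 0.23. Of the 18 genes named from these and the related lists as called in BDL against sham, Pgd and Plin3 passed under all 19 alternative settings. Lpl lost its call without BDL library 2 or sham library 2, and the other 15 lost theirs without BDL library 2, without sham library 2 and without sham library 3, where adjusted p reached 0.180, 0.146 and 0.163. Without BDL library 1, 12 of the 18 lost their calls, and without sham library 1, 6 did.

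Set against BDL, the BDL plus senkyunolide A libraries gave 0 calls in every one of the 10 pathway lists, beside 0.0101% of all genes. Unadjusted limma p under 0.05 was reached by 0 to 4 genes per list, beside 12.3% of all genes. The counts ran from 0 of 10 for acetyl-CoA and citrate supply to 4 of 13 for glycerolipid assembly and 4 of 9 for NADPH supply. Against sham, BDL plus senkyunolide A had Plin3 (0.92 ± 0.20) and Lpl (1.92 ± 0.40) higher and Acsl1 (-2.47 ± 0.52) and Mttp (-1.03 ± 0.23) lower, with limma adjusted p of 0.0408 to 0.0476, beside 1.76% of all genes called higher and 0.405% called lower. These calls were lost when any 1 sham library, or library 2 or 3 of BDL plus senkyunolide A, was left out, with adjusted p of 0.113 to 0.213. Plin3 and Acsl1 also lost theirs without BDL library 1, and Lpl and Acsl1 without BDL library 2 (adjusted p of up to 0.0570). All 4 missed the threshold with only the 2 groups fitted, at 0.0514 or above, and without a filter on low values. Lpl also missed it under median-ratio scaling, Plin3, Lpl and Mttp under quantile normalization, Plin3 and Lpl under hepatocyte marker scaling and Plin3 under TPM scaling.

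**Figure D5:**
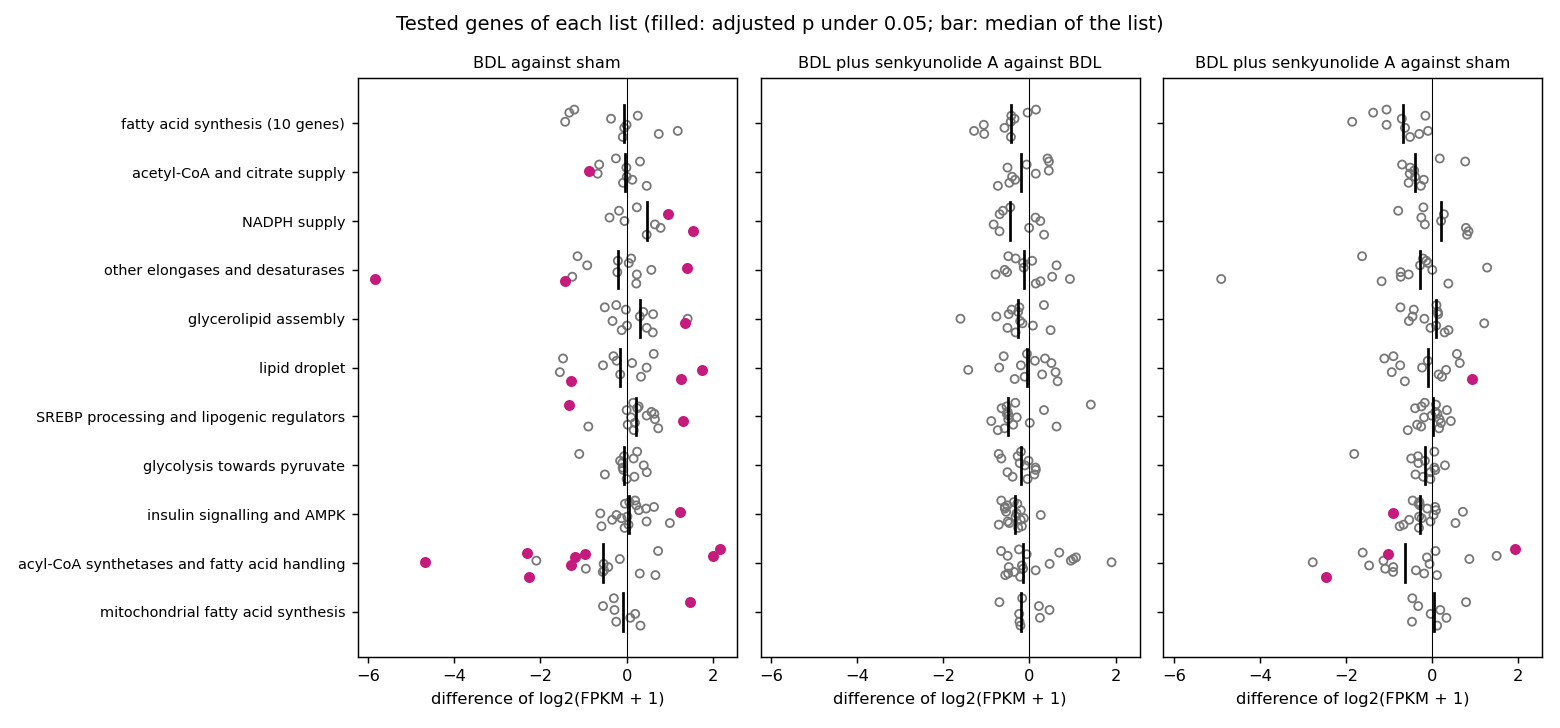
Difference in log2(FPKM + 1) of each tested gene in the 10 pathway lists and the 10 lipogenic genes, for the 3 comparisons. Points are genes, filled where adjusted p is under 0.05, and the vertical bars are list medians, such as -0.54 for fatty acid handling in BDL against sham.

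The genes whose levels followed Fasn most closely over the 9 libraries, ranked by Pearson r on the log scale among 9874 other genes, were Wfs1 (0.99), Ttyh2 (0.98), Dnm2 (0.98), Gorasp2 (0.98) and Pip4k2c (0.97). None of them is in the pathway lists. Those most like the mean standardised profile of the 10 genes were Trpc4ap (0.99), Smg8 (0.98), Psmd2 (0.97), Slc26a1 (0.97) and Dlst (0.97). Without the 2 libraries farthest from the median, the r of these 5 was 0.88 to 0.96. They are given as a description of 9 libraries, within each of which all genes share depth and scaling.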

How the data were processed

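PolyA RNA of 9 mouse libraries was read as FPKM, a fragment count scaled by gene length and library total, which the authors computed and deposited as 1 table. HISAT2 2.0.5, CASAVA 1.8, featureCounts 1.5.0-p3, fastp and DESeq2 1.20.0 are listed, with GRCm38 (mm10), per the submitters' processing notes; annotation and strand use are not stated there. FPKM fall for all genes when a few abundant ones rise, so other scalings were tried. Fragments were estimated from the steps between low FPKM values; counts were not recovered, so there is no count test and no counting interval. Groups came from the labels.

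Genes with a mean of at least 1 FPKM over 9 libraries (9884) were fitted as log2(FPKM + 1) with limma 3.58.1 in R 4.3.3 (3 groups, variance trend, two-sided, Benjamini-Hochberg, called under 0.05). Differences on this scale understate change at low FPKM. The script was tested on simulated data. The alternatives changed the pseudocount, filter, scaling, samples or model, added a replicate block, or left out libraries. The 10 genes and all lists were chosen with earlier results of these data known. Of each pathway list, up to 4 genes with the smallest p per comparison, and the 5 genes most like Fasn or like the 10 genes, could be named. Gene positions are from GENCODE M21 and promoters from RefSeq GRCm38.p6, counted from 1.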

Additional observations from a re-analysis of the deposited data

How the results depend on the processing

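Of the 570 differences of the 10 genes under 19 alternatives, 511 kept their direction and side of the threshold, 28 passed it and 31 reversed; the cause was not tested. For BDL against sham, the number of the 10 genes called was 1 under median-ratio scaling, quantile normalization and the replicate block (Mlxipl each time), 3 with only the 2 groups fitted (Mlxipl, Thrsp and Me1), and 0 to 5 when libraries were left out. Leaving out library 1 of BDL plus senkyunolide A gave 3, its library 3 gave 1 (Thrsp), BDL library 3 gave 1 (Me1) and sham library 1 gave 2. For BDL plus senkyunolide A against sham it was 1 under TPM and hepatocyte marker scaling (Me1), 1 under the replicate block (Mlxipl) and 0 to 4 when libraries were left out. Among all genes, BDL against sham gave 1084 calls, 520 without a filter and 151 to 2588 with libraries left out (181 without BDL library 2, 172 without sham library 2). Median-ratio scaling moved the median of all genes in that comparison to -0.02, against 0.15 as deposited. BDL plus senkyunolide A against BDL gave 1 call, 3 under hepatocyte marker scaling, 0 with only the 2 groups fitted, 0 under the replicate block, and 0 to 64 with libraries left out. Its contrast with sham gave 214 calls, 418 with a pseudocount of 0.1, 3 without a filter, 137 under median-ratio scaling, 105 under quantile normalization, 122 under hepatocyte marker scaling, 60 with only the 2 groups fitted, 374 under the replicate block, and 0 to 1837 with libraries left out. The replicate block paired libraries by number only: same-numbered libraries did not deviate together (r of -0.39 to 0.25 over 9 pairs), and it left 882 calls for BDL against sham. Of the 18 pathway genes named as called in BDL against sham, 13 lost the call without a filter, 4 under median-ratio scaling, 4 under hepatocyte marker scaling, 2 under the replicate block and 1 under quantile normalization. Of the 5 named as called in BDL plus senkyunolide A against sham, all 5 lost the call without a filter (adjusted p of 0.0843 to 0.136) and with only the 2 groups fitted, 3 under quantile normalization, 2 under hepatocyte marker scaling, and 1 each under median-ratio scaling, TPM and the replicate block.

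Reversed differences under other scalings were small. In BDL against sham, Scd1 was 0.035 under quantile normalization, 0.0295 under TPM and 0.0843 under hepatocyte marker scaling, and Elovl6 was 0.0211 under the last. In BDL plus senkyunolide A against BDL, Mlxipl was 0.0734 under median-ratio scaling and 0.0447 under quantile normalization, and hepatocyte marker scaling gave -0.19 for Thrsp and -0.0905 for Cbr4. With libraries left out, BDL against sham ran from -0.0074 to 0.71 for Srebf1, -0.41 to 0.13 for Acly, -0.26 to 0.17 for Elovl6 and -0.47 to 0.45 for Scd1. BDL plus senkyunolide A against BDL ran from -0.46 to 0.18 for Mlxipl and -0.37 to 0.57 for Thrsp. Against sham it ran from -0.52 to 0.0371 for Acaca, -0.45 to 0.51 for Fasn and -0.59 to 0.29 for Srebf1.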

Other observations

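The remaining lists cover sugar use, energy sensing and the separate fatty acid synthesis of mitochondria. Glycolysis towards pyruvate had 0 of 13 genes called in each comparison. Of all genes, 11% were called for BDL against sham, 0.0101% for BDL plus senkyunolide A against BDL and 2.17% for BDL plus senkyunolide A against sham. The liver enzyme Pklr of this list, a known ChREBP target, had 79.4, 13.3 and 13.7 FPKM in BDL plus senkyunolide A libraries 1, 2 and 3, 43.0, 50.4 and 31.7 FPKM in BDL libraries and 138.0, 94.8 and 53.7 FPKM in sham libraries. All BDL libraries were below all sham libraries for Pklr, but the limma adjusted p was 0.243. Pfkl and Tpi1 went the other way, with every BDL library above every sham library (limma adjusted p = 0.173 and 0.236). Over the list, 2 of 13 lay above sham without overlap and 1 below, beside 21.5% and 8.96% of all genes.

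Insulin signalling and AMPK, the kinase that phosphorylates and inhibits Acaca, had 1 of 18 genes higher and 0 lower in BDL than in sham. Of all genes, 8.12% were called higher and 2.84% lower in this comparison, so these counts do not set the list apart. Prkab1, a regulatory AMPK subunit, had 19.5, 24.6 and 12.2 FPKM in BDL libraries, against 11.5, 4.84 and 6.04 FPKM in sham libraries (1.25 ± 0.32, limma adjusted p = 0.0310). Prkaa2, a catalytic subunit, had 6.81, 7.08 and 6.37 FPKM with BDL plus senkyunolide A, against 14.9, 12.7 and 13.1 FPKM in sham, and fell by 0.91 ± 0.18 (adjusted p = 0.0382). The Prkaa2 call was lost without any 1 sham library and without library 2 or 3 of BDL plus senkyunolide A (adjusted p of 0.113 to 0.188). It was also lost without BDL library 1, without a filter on low values (0.0843) and with only the 2 groups fitted. In BDL against sham, Prkaa2 differed by -0.61 ± 0.18 and Akt1 by 1.01 ± 0.30, with adjusted p of 0.0540 and 0.0526.

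Mitochondrial fatty acid synthesis had 1 of 8 genes called higher in BDL than in sham, beside 8.12% of all genes. The called gene was Lipt2, a lipoyl transferase, with 4.19, 6.32 and 8.08 FPKM in BDL libraries, against 2.29, 1.62 and 0.834 FPKM in sham libraries (1.48 ± 0.30, limma adjusted p = 0.0143). Its call, like that of Prkab1, was lost without BDL library 2, sham library 2 or sham library 3, and Prkab1 also lost its call without BDL library 1. No gene of these lists was called between BDL plus senkyunolide A and BDL, beside 0.0101% of all genes.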
